A study of Mus musculus with 4 samples.

Results

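The genes described here are 7 relatives and receptors of vascular endothelial growth factor (VEGF), taken by name from the 19491 genes listed in any of 4 single-cell libraries. They are the ligands *Vegfb*, *Vegfc* and *Pgf*, the receptor tyrosine kinases *Flt1* (VEGFR1) and *Kdr* (VEGFR2), and the co-receptors *Nrp1* and *Nrp2*. All 7 were listed in each of the 4 libraries. They were chosen by name and not by an expression cut, but with earlier results of these data known.

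VEGF ligands are secreted dimers that bind receptor tyrosine kinases best known from endothelial cells, where they drive survival, permeability and sprouting. VEGF-B and placental growth factor (the product of *Pgf*) bind VEGFR1, while VEGF-C binds VEGFR3 and, once processed, VEGFR2. Neuropilin-1 and neuropilin-2 have no kinase domain of their own, and they serve as co-receptors both for VEGFs and for class 3 semaphorins, which signal through plexins. In myeloid cells VEGFR1 is known as the receptor through which VEGF and placental growth factor attract monocytes.

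Cells had been sorted for CD45, the pan-leukocyte antigen encoded by *Ptprc*, from the dura mater or the brain of C57BL/6J mice aged 8 weeks, 3 days after photothrombotic injury (PTI), in which light activates Rose Bengal within vessels under the skull. The injured groups (INJ) were set beside control groups (CT), taken as the sham-operated animals of the study's legends, which gave brain CT, brain INJ, dura CT and dura INJ. Each group was 1 library made with 10x Chromium 3′ chemistry, and the sources used here do not say how many mice went into it. No difference between groups therefore had a replicate check, no test between groups was possible, and the intervals printed below are exact 95% intervals that cover counting error only.

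The 4 libraries held 3515 to 5925 barcodes, of which 14098 of 18969 were kept, with medians of 8252 to 14270 unique molecular identifiers (UMIs, each counting 1 captured transcript) per kept cell, the brain INJ and dura INJ libraries being the deeper ones. *Ptprc* was seen in 91.9% to 95.5% of the kept cells of each library. The brain labels write the marker as "CD45-+". Cells were put into immune classes by marker lists that hold none of the 7 genes, and the classes are called "-like" because they rest on RNA markers alone. This placed 12078 cells (85.7%) in a class and left 9.95% to 15.6% of each library unassigned. Cells near the limit between classes came to 14.4%. Barcodes with many endothelial markers (9 to 25 per library) or many stromal markers (5 to 13 per library) were set aside. Levels are given as CPM, the UMIs of a gene per 1000000 UMIs of the class, and since the chemistry counts transcript ends they are compared between classes and groups but not between genes.

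In the immune classes the 7 genes fell into 3 patterns, which the plot of each gene's UMIs by class summarises. *Nrp1* and *Vegfb* were highest in Lyve1+ macrophage-like cells in each library, as was *Nrp2* in the dura libraries and brain CT. Microglia-like cells could not be told apart from them in *Vegfb* in the brain libraries, nor in *Nrp2* in brain CT. *Flt1* and *Vegfc* had their highest point levels in Ly6C low monocyte-like cells. In *Vegfc* these could not be told apart from NK/ILC1-like cells in brain CT, dura CT and dura INJ. Nor could they be told apart from plasmacytoid dendritic-like cells in any library. *Kdr* and *Pgf* were scarce in every immune class, and most *Flt1* UMIs of 3 libraries and most *Kdr* UMIs of brain CT and dura CT came from the few endothelial-marked barcodes. In brain INJ, infiltrating macrophage-like cells were 23.6% of the kept cells and held 51.7% of the *Nrp1*, 60.0% of the *Nrp2*, 50.9% of the *Vegfb*, 31.1% of the *Kdr* and 15.1% of the *Flt1* UMIs. They were deep cells, with a median of 23030 UMIs. Per UMI they stood above all kept cells of that library in *Nrp1* (172 against 115 CPM), *Nrp2* (66.3 against 38.2 CPM) and *Vegfb* (64.1 against 43.6 CPM). Their levels were 3.8 against 4.21 CPM for *Kdr* and 6.1 against 13.9 CPM for *Flt1*. All kept cells include the infiltrating cells themselves and the 25 endothelial-marked barcodes, at 2887 CPM *Flt1* and 235 CPM *Kdr*. For *Kdr* and *Flt1* this is thus not a comparison with immune cells alone.

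**Figure D1:**
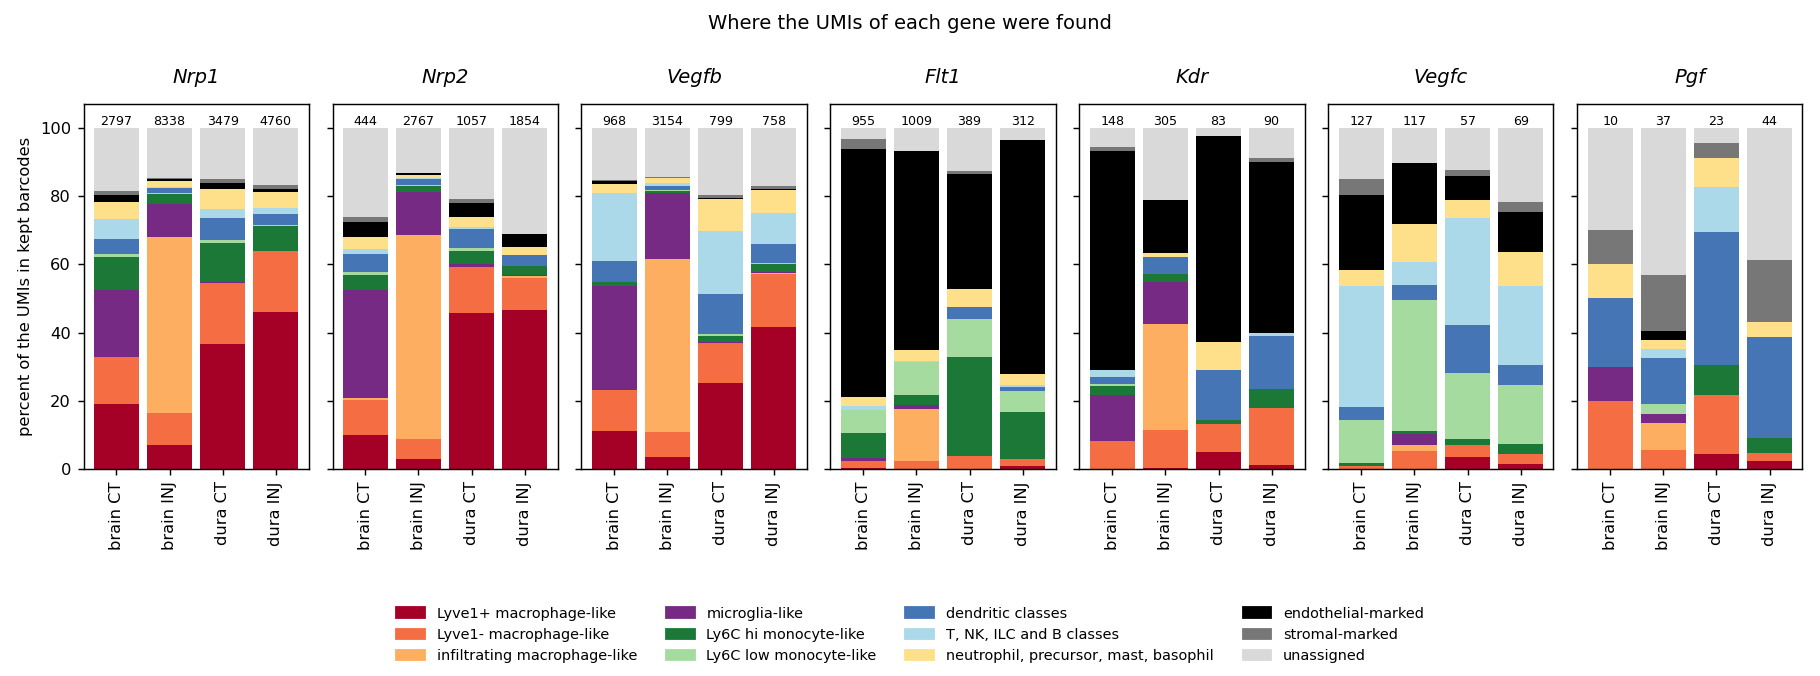
Percent of each gene's UMIs (vertical axis) found in each class of kept cells, with 1 stacked bar per gene and library and the number of UMIs above each bar. Endothelial-marked barcodes held 72.9% of the *Flt1* UMIs in brain CT, 33.9% in dura CT, 58.4% in brain INJ and 68.6% in dura INJ, and infiltrating macrophage-like cells held 51.7% of the *Nrp1*, 60.0% of the *Nrp2* and 50.9% of the *Vegfb* UMIs in brain INJ.

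*Nrp1* (GRCm38 chromosome 8, 128358604 to 128503363, plus strand) encodes neuropilin-1, the co-receptor shared by VEGF-A and semaphorin 3A. It was highest in Lyve1+ macrophage-like cells of every library. The level there was 415 CPM (381 to 452) in brain CT, 450.1 CPM (414 to 488) in brain INJ, 393 CPM (371 to 415) in dura CT and 349 CPM (335 to 364) in dura INJ. At least 92.2% of these cells had an *Nrp1* UMI in each library, and between 46.9% and 63.4% did once every cell was thinned to 2000 UMIs to even out depth. Lyve1- macrophage-like cells had 113 CPM in brain CT, 106 CPM in brain INJ, 178 CPM in dura CT and 157 CPM in dura INJ. These are macrophages marked by MHC class II and complement C1q genes.

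Infiltrating macrophage-like cells, marked by *Arg1*, *Gpnmb* and *Spp1* and numerous in brain INJ alone (1049 cells against 1 each in brain CT and dura CT and 8 in dura INJ), had an *Nrp1* level of 172 CPM (167 to 177) and showed the gene in 87.0% of cells. Microglia-like cells had 120 CPM (110 to 131) in brain CT and 94.7 CPM (88.2 to 102) in brain INJ. Ly6C hi monocyte-like cells had 53.3 to 72.9 CPM over the 4 libraries and Ly6C low monocyte-like cells 25.5 to 60.2 CPM. The order within the myeloid cells was thus Lyve1+ macrophages first by a margin wider than the counting intervals, and monocytes below macrophages and microglia.

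B-like cells served as the measure of free RNA for the receptors, which B cells should lack. They had 0 to 1.4 CPM *Nrp1* with medians of 3462 to 5334 UMIs per cell. Every myeloid class named above stood above that level. Plasmacytoid dendritic cells (pDC), a class for which neuropilin-1 is a known surface marker, had 49.9, 39.9, 76.2 and 52.1 CPM in brain CT, brain INJ, dura CT and dura INJ. The other classes ranged from 45.6 to 57.9 CPM in γδ T-like cells, from 25.4 to 42.4 CPM in cDC2-like cells and from 19.5 to 46.4 CPM in mature neutrophil-like cells.

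Among lymphoid cells *Nrp1* reached 74.8 CPM in the αβ T-like cells of dura INJ (35 UMIs in 58 cells) against 28.9 CPM in dura CT (23 UMIs in 86 cells), a log2 ratio of 1.38 (0.58 to 2.20). It was 1 of the 2 members with enough UMIs in that comparison, in which 6.08% of all genes tested were past 2-fold in either direction. A gene counted as tested where both groups together held at least 20 UMIs. In brain CT, the library with the most αβ T-like cells, an *Nrp1* UMI was seen in 14 of 24 cells with a UMI of *Foxp3*, the master factor of regulatory T cells (58.3%, 36.6% to 77.9%), and in 38 of 555 cells without one (6.8%, 4.9% to 9.3%). In the other libraries only 4 or 5 such cells had a *Foxp3* UMI, of which 4 of 5 in dura INJ, 1 of 5 in brain INJ and 0 of 4 in dura CT also had *Nrp1*.

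**Figure D2:**
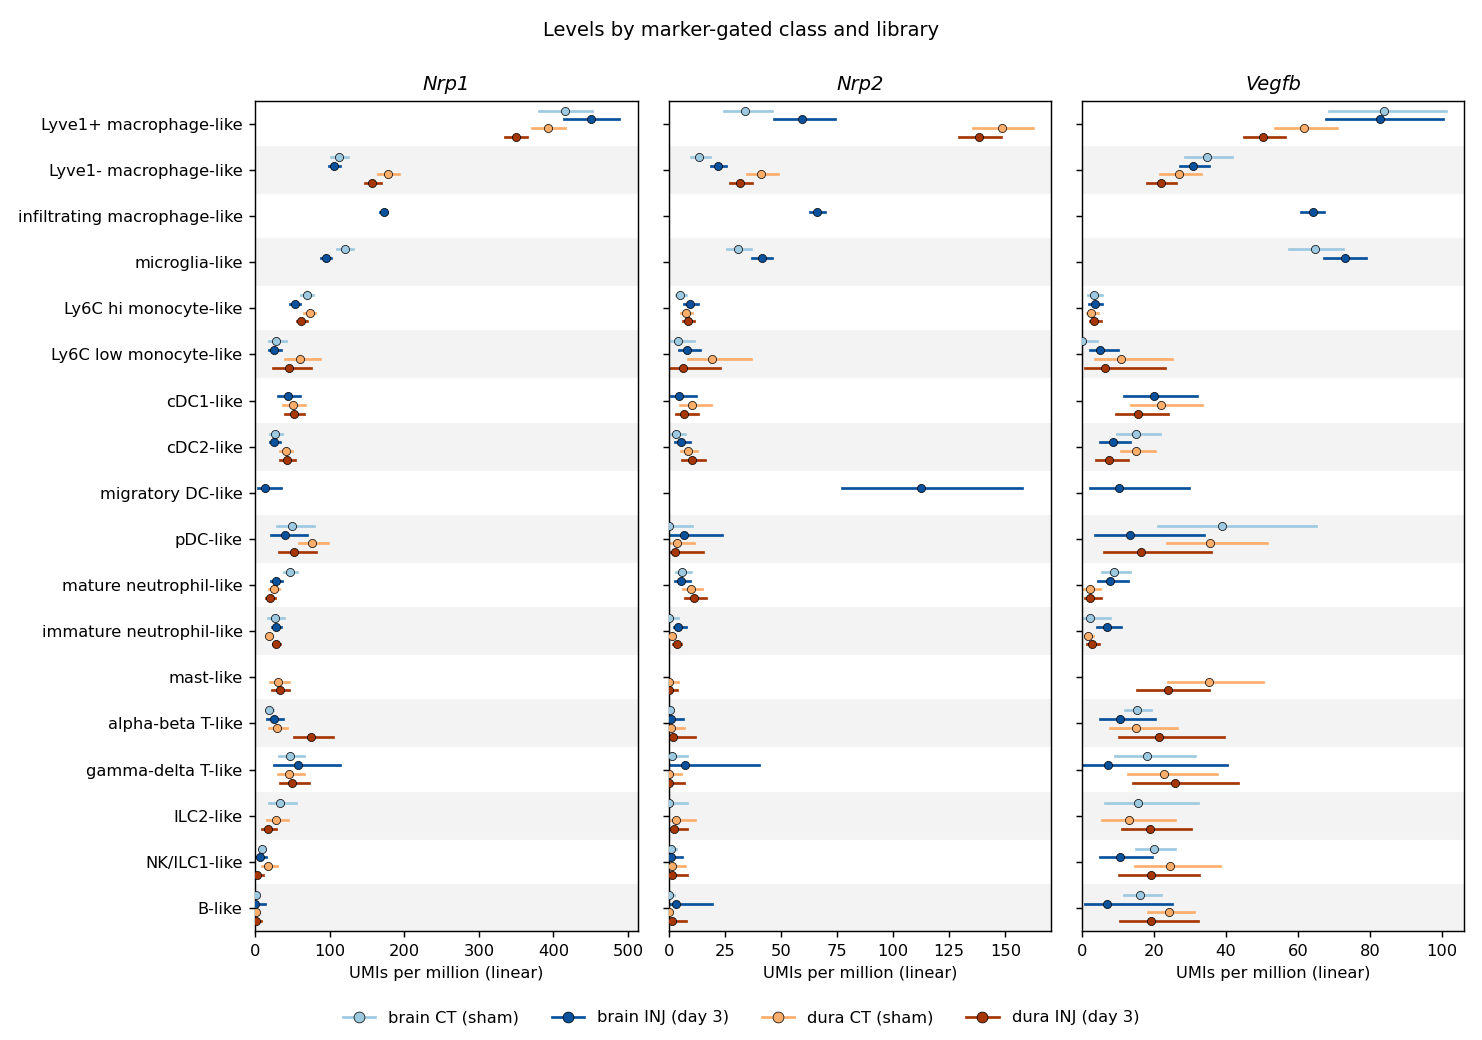
*Nrp1*, *Nrp2* and *Vegfb* in CPM (horizontal axis, linear) by immune class for the 4 libraries, with points for the class level and bars for the exact 95% Poisson interval. Lyve1+ macrophage-like cells carry the highest *Nrp1* points, at 349 to 450.1 CPM, and the *Nrp2* points of the same class separate the dura libraries (148 and 138 CPM) from the brain libraries (34.1 and 59.4 CPM).

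*Nrp2* (chromosome 1, 62703285 to 62818695, plus strand) encodes neuropilin-2, the co-receptor associated with VEGF-C and lymphatic vessels. Among Lyve1+ cells it was higher in the dura mater than in the brain. Lyve1+ macrophage-like cells had 148 CPM (136 to 162) in dura CT and 138 CPM (129 to 148) in dura INJ, but 34.1 CPM (24.8 to 45.8) in brain CT and 59.4 CPM (46.8 to 74.3) in brain INJ. The gene was detected in 63.6% of the class in dura CT and in 28.3% in brain CT.

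Between the control libraries the Lyve1+ cells of the dura were higher in *Nrp2* than those of the brain by a log2 ratio of 2.12 (1.67 to 2.60), while *Nrp1* differed by -0.08 (-0.23 to 0.07) and *Vegfb* by -0.44 (-0.79 to -0.09). *Nrp2* was thus 1 of 3 tested members past 2-fold, beside 9.93% of all genes. After injury the log2 ratio of *Nrp2* between the Lyve1+ cells of dura INJ and brain INJ was 1.22 (0.88 to 1.58), again 1 of 3 tested members past 2-fold beside 12.1% of all genes. The Lyve1- macrophage-like cells had 41.3 CPM *Nrp2* in dura CT against 13.7 CPM in brain CT, a log2 ratio of 1.60 (1.11 to 2.11), with 1 of 4 tested members and 7.84% of all genes past 2-fold. In the INJ libraries the Lyve1- cells had 32.0 CPM in the dura and 22.1 CPM in the brain, a log2 ratio of 0.53 (0.22 to 0.85), which is under 2-fold. The Lyve1- cells of the groups lay in different clusters, since 20.7% of those of dura CT and 17.3% of those of dura INJ fell in Lyve1+ clusters against 1.7% in brain CT. Of those of brain INJ, 31.8% fell in clusters of infiltrating macrophage-like cells, a class at 66.3 CPM *Nrp2*. The part of these shares in the results was not tested.

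With both kinds of macrophage together, dura CT held 93.0 CPM *Nrp2* and brain CT 19.3 CPM, a log2 ratio of 2.27 (1.95 to 2.60). *Nrp1* was 282 CPM in dura CT against 197 CPM in brain CT, a log2 ratio of 0.52 (0.40 to 0.63). The Lyve1+ cells made up 258 of 495 macrophage-like cells in dura CT and 113 of 343 in brain CT, and within the Lyve1+ cells *Nrp1* was 393 and 415 CPM. *Flt1* was lower in the dura by 1.02 on the log2 scale (15 against 21 UMIs, log2 ratio between -2.08 and 0.01). Thus 2 of 5 tested members, *Nrp2* and *Flt1*, were past 2-fold, beside 8.35% of all genes, and the median log2 ratio was -0.14 over the members and 0.19 over all genes tested. With *Flt1* at so few UMIs, a stricter gate or a minimum of 50 UMIs left *Nrp2* alone past 2-fold.

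Outside these classes *Nrp2* was 66.3 CPM (63.1 to 69.5) in infiltrating macrophage-like cells, 31.0 and 41.5 CPM in microglia-like cells of brain CT and brain INJ, and 5.1 to 9.6 CPM in Ly6C hi monocyte-like cells. Migratory dendritic cell-like cells had 112 CPM (77.3 to 158) in brain INJ, from 33 UMIs in 19 of 28 cells, above every macrophage class of that library. The other libraries held 8 to 17 such cells, too few for a level to be given. T-, B- and NK-like classes held 0 to 3 *Nrp2* UMIs per class and library. In brain INJ the intervals of Lyve1+ and infiltrating macrophage-like cells overlapped, so these neighbours in the order of *Nrp2* levels could not be told apart. In brain CT the 31.0 CPM of microglia-like cells lay inside the interval of the Lyve1+ cells, so the same holds there. Of the *Nrp2* UMIs of dura INJ, 31.1% lay in unassigned cells, at 88.5 CPM, which the class levels leave out.

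The share of macrophages that showed both neuropilins differed between classes. In Lyve1+ cells of dura CT an *Nrp2* UMI was seen in 162 of 238 cells with an *Nrp1* UMI (68.1%), and among infiltrating macrophage-like cells in 653 of 913 (71.5%) with one and in 60 (44.1%) of those without. In Lyve1+ cells of brain CT and brain INJ the share with *Nrp2* among cells with *Nrp1* was 29.2% and 33.8%, and in Lyve1- cells it was 12.2% to 31.1%. Cells with more UMIs are more likely to show either gene, and the joint counts were not thinned.

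In every library the Lyve1+ cells stood above the Lyve1- cells in all 3 of these genes. The log2 ratios of *Nrp1* were 1.88, 1.14, 2.09 and 1.15 in brain CT, dura CT, brain INJ and dura INJ. Those of *Nrp2* were 1.32, 1.85, 1.43 and 2.11, and those of *Vegfb* 1.27, 1.20, 1.42 and 1.20. With these, 4 of 4, 3 of 3, 4 of 5 and 3 of 3 tested members were past 2-fold in either direction, beside 20.6%, 12.8%, 26.8% and 13% of all genes, whose median log2 ratios were 0.32, 0.18, 0.29 and 0.15. The other member past 2-fold in each brain library was lower in the Lyve1+ cells. In brain CT it was *Flt1*, at 1 against 20 UMIs and a log2 ratio of -2.94 (-8.31 to -0.29). In brain INJ it was *Kdr*, at 1 against 34 UMIs and -2.54 (-7.89 to 0.03). Barcodes with at least 5 of the 12 endothelial markers had been set aside, so low sums of these markers were partly set in advance. The endothelial markers summed to 210 CPM in the Lyve1+ cells of brain CT (5 of 12 at 0), of which *Egfl7* gave 185 CPM, while *Cldn5* (1.55 CPM), *Cdh5* (0.78 CPM) and *Emcn* (0) were at or near 0. In the same library *Flt1*, at 2451 CPM in endothelial-marked barcodes, was 0.78 CPM in the Lyve1+ cells.

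*Flt1* (chromosome 5, 147561604 to 147726011, minus strand) encodes VEGFR1, the high-affinity receptor that also acts as a decoy for VEGF-A. Among immune classes it was highest in Ly6C low monocyte-like cells. Ly6C low monocyte-like cells, the patrolling monocytes marked by *Ace* and *Treml4*, had 68.8 CPM (52.9 to 88.0) in brain CT, 60.5 CPM (49.0 to 74.0) in brain INJ, 92.4 CPM (66.9 to 124) in dura CT and 60.7 CPM (36.5 to 94.8) in dura INJ. The 4 intervals overlapped, and the gene was detected in 38.9%, 29.6% and 45.8% of the class in brain CT, brain INJ and dura CT.

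Ly6C hi monocyte-like cells, the classical inflammatory monocytes, had less, and the log2 ratio of Ly6C low to Ly6C hi cells was 1.93, 2.15, 3.16 and 2.96 in brain CT, dura CT, brain INJ and dura INJ. In those comparisons 2 of 3, 2 of 3, 3 of 5 and 1 of 4 tested members were past 2-fold, beside 22.8%, 22.9%, 22.2% and 24.1% of all genes. *Flt1* was the member on the higher side in all 4, and *Nrp1* lay on the lower side in the brain libraries, although with clusters in place of gates its log2 ratio went from -1.29 to -0.06 in brain CT and from -1.06 to 0.19 in brain INJ. Mature neutrophil-like cells had 3.2 to 9.2 CPM *Flt1* and immature ones 0.2 to 5.5 CPM. Infiltrating macrophage-like cells had 6.1 CPM, and their log2 ratio to the Ly6C hi cells of brain INJ was -0.16 (-0.72 to 0.45). Lyve1+ macrophage-like cells had 0 to 3 *Flt1* UMIs per library and microglia-like cells 1.5 to 2.0 CPM. B-like cells, the measure of free RNA, had 0 to 3.5 CPM, from 0 to 2 UMIs per library. In brain CT they had 0.79 CPM (2 UMIs) against 1.98 CPM (9 UMIs) in microglia-like cells. In brain INJ they had 3.46 CPM (1 UMI) against 1.55 CPM (13 UMIs). The B-like counts are too few to place the microglia-like levels above or within free RNA.

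*Flt1* in Ly6C hi monocyte-like cells was lower after injury in both tissues. In the brain it was 18.0 CPM (14.1 to 22.7) in CT and 6.8 CPM (4.6 to 9.6) in INJ, and 21.1% and 8.19% of cells showed it. In the dura it was 20.8 CPM (17.1 to 25.0) in CT and 7.8 CPM (5.7 to 10.5) in INJ, and 17.1% and 9.49% of cells showed it. After thinning to 2000 UMIs the shares were 5.06% and 2.14% in the brain and 4.11% and 1.82% in the dura, so the order stayed. The median UMIs per cell of this class were 14667 in brain CT and 14547 in brain INJ. In the dura they were 15077 in CT and 18247 in INJ.

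The log2 ratio of *Flt1* was -1.41 (-2.07 to -0.78) in the brain and -1.41 (-1.95 to -0.89) in the dura. In each tissue it was the 1 of 4 tested members past 2-fold, beside 7.67% of all genes in the brain and 4.83% in the dura. The medians over the members were -0.15 and -0.04, and those over all genes -0.06 in each tissue. After thinning, the log2 ratio was -0.79 in the dura and -1.36 in the brain, the latter from too few UMIs to be tested. The single cell with the most *Flt1* held 16 of the 113 UMIs in dura CT and 9 of the 43 in dura INJ.

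Other markers differed along with *Flt1* in these cells. The 12 endothelial markers summed to 17.0 CPM in brain CT and 9.17 CPM in brain INJ, and to 13.3 and 6.18 CPM in dura CT and dura INJ, with 4 to 7 of them at 0. As above, barcodes with at least 5 of the 12 had been set aside beforehand. *Cldn5* was 3.3 and 0.66 CPM in the brain and 0 in both dura libraries, against 926 to 6241 CPM in the endothelial-marked barcodes of 3 libraries and 51.5 CPM in those of dura CT. The 7 markers of Ly6C low monocytes summed to 1517 and 844 CPM in the brain, and to 1135 and 735 CPM in the dura. Among Ly6C hi cells with at most 1 of these 7 markers *Flt1* was 26.7 CPM in brain CT and 4.7 CPM in brain INJ, a log2 ratio of -2.50 (-3.85 to -1.32), and the dura gave -2.15 (-3.20 to -1.22). Among cells with 2 or more of them the log2 ratios were -0.91 (-1.71 to -0.15) and -1.03 (-1.70 to -0.39). The split by number of markers did not separate their summed level, which in cells with at most 1 of them was still 1463 CPM in brain CT and 656 CPM in brain INJ, and 982 and 683 CPM in dura CT and dura INJ. The part of these markers in the *Flt1* difference was not tested.

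*Kdr* (chromosome 5, 75932827 to 75978458, minus strand) encodes VEGFR2, the main signalling receptor for VEGF-A in endothelial cells. It was near the detection limit in the sorted immune cells. Microglia-like cells had 4.4 CPM in brain CT and 4.4 CPM in brain INJ, infiltrating macrophage-like cells 3.8 CPM (3.1 to 4.6), and Lyve1- macrophage-like cells 2.0 to 4.6 CPM over the 4 libraries. A UMI was seen in 6.29% of the infiltrating cells, and in 0.572% after thinning. B-like cells held 1 *Kdr* UMI in the 4 libraries together.

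The pDC-like cells of the INJ libraries showed 13.3 and 13.7 CPM of *Kdr*, which came from 4 UMIs in 1 cell and 5 UMIs in 2 cells. By contrast the endothelial-marked barcodes had 334.5 CPM in brain CT, 235 CPM in brain INJ, 368 CPM in dura CT and 298 CPM in dura INJ. They held 64.2%, 15.7%, 60.2% and 50% of the *Kdr* UMIs in the order brain CT, brain INJ, dura CT and dura INJ.

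**Figure D3:**
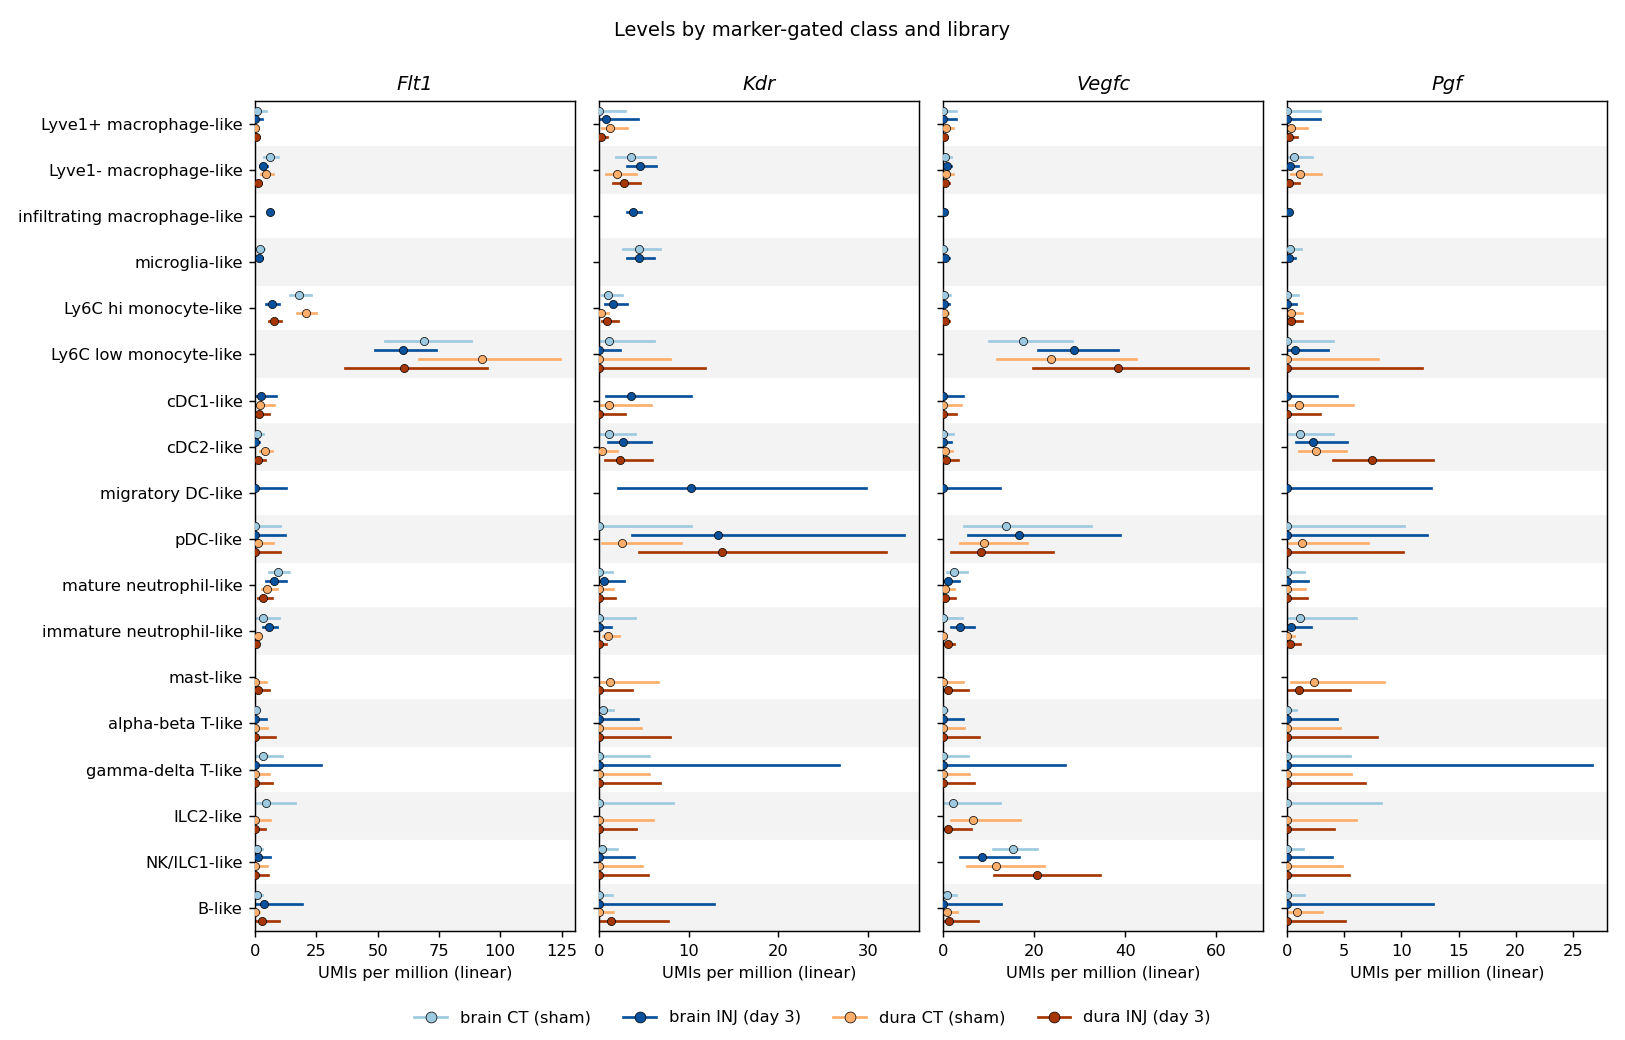
*Flt1*, *Kdr*, *Vegfc* and *Pgf* in CPM (horizontal axis, linear) by immune class for the 4 libraries, with points for the class level and bars for the exact 95% Poisson interval. *Flt1* lies at 60.5 to 92.4 CPM in Ly6C low monocyte-like cells and near 0 in Lyve1+ macrophage-like cells. *Vegfc* has its highest points in the same monocytes at 17.5 to 38.3 CPM, with bars that reach the NK/ILC1-like points in brain CT and dura INJ. *Kdr* and *Pgf* stay low across the classes.

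Of the ligands, *Vegfb* (chromosome 19, 6982473 to 6987651, minus strand) encodes VEGF-B, a VEGFR1 ligand known for roles in heart muscle and lipid handling. Its highest levels lay in Lyve1+ macrophage-like cells. Lyve1+ macrophage-like cells had 83.8 CPM in brain CT, 82.8 CPM in brain INJ, 61.8 CPM in dura CT and 50.4 CPM in dura INJ. Microglia-like cells had 64.7 CPM in brain CT and 73.0 CPM in brain INJ, and infiltrating macrophage-like cells 64.1 CPM (61.0 to 67.3), where 65.3% of cells showed it. In the brain libraries the intervals of Lyve1+ macrophage-like and microglia-like cells overlapped. Lyve1- macrophage-like cells were lower, at 21.9 to 34.8 CPM. Some other classes equalled them in some libraries, with pDC-like cells at 38.8 CPM in brain CT and 35.6 CPM in dura CT, mast-like cells at 35.3 CPM in dura CT and 23.7 CPM in dura INJ, and granulocyte precursor-like cells at 26.8 CPM in dura CT. After injury the pDC-like cells of brain INJ had 13.3 CPM (4 UMIs). The granulocyte precursor-like cells of dura INJ had 11.7 CPM (8 UMIs).

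Monocytes had little *Vegfb*. Ly6C hi monocyte-like cells had 2.6 to 3.5 CPM over the 4 libraries, below the 6.9 to 24.1 CPM of B-like cells. No class was set as a measure of free RNA for this gene. The lymphoid classes other than B-like cells lay at 7.2 to 25.8 CPM. In brain INJ the infiltrating macrophage-like cells exceeded the Ly6C hi monocyte-like cells by a log2 ratio of 4.20 (3.49 to 5.01), an 18.3-fold difference. *Nrp2* differed between these classes by 2.79, *Nrp1* by 1.69 and *Kdr* by 1.31 (-0.90 after thinning), so that 4 of 5 tested members were past 2-fold, all higher in the infiltrating cells, beside 26.4% of all genes in either direction.

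*Vegfc* (chromosome 8, 54077606 to 54187096, plus strand) encodes VEGF-C, the growth factor of lymphatic vessels. It was found in Ly6C low monocyte-like, NK/ILC1-like and pDC-like cells. The Ly6C low cells had 17.5 CPM (10.0 to 28.4) in brain CT, 28.7 CPM (20.9 to 38.4) in brain INJ, 23.6 CPM (11.8 to 42.3) in dura CT and 38.3 CPM (19.8 to 67.0) in dura INJ, from 11 to 45 UMIs each. NK/ILC1-like cells had 15.2, 8.5, 11.6 and 20.5 CPM in the same order, and pDC-like cells 13.9, 16.6, 8.9 and 8.2 CPM. Within each of these 3 classes the intervals of the 4 libraries overlapped. The NK/ILC1-like levels rested on 42, 8, 9 and 14 UMIs. Those of brain CT and dura INJ lay inside the intervals of the Ly6C low cells, as did the pDC-like level of brain CT. The order of these classes was therefore not settled there. The pDC-like levels rested on 5, 5, 7 and 3 UMIs in brain CT, brain INJ, dura CT and dura INJ. These, and the 9 UMIs of NK/ILC1-like cells in dura CT, were too few to settle the order either.

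Levels were lower in the remaining classes. ILC2-like cells had 1.1 to 6.6 CPM (1 to 4 UMIs) and neutrophil-like cells at most 3.7 CPM, the latter from 10 UMIs in immature cells of brain INJ. Macrophage-like, microglia-like and infiltrating cells had at most 0.8 CPM *Vegfc*, Ly6C hi monocyte-like cells 0.2 to 0.4 CPM, and αβ T-like cells 0 UMIs in all 4 libraries. In brain INJ the Ly6C low cells held 45 *Vegfc* UMIs and the Ly6C hi cells 1, a log2 ratio of 7.04 (4.48 to 12.37). *Vegfc* and *Flt1* both had their highest point levels in the Ly6C low class, and within it *Vegfc* was not seen more often in cells with *Flt1*. A *Vegfc* UMI was seen in 8.6% of cells with and 20% of cells without a *Flt1* UMI in brain CT, in 11.5% and 20% in brain INJ, in 13.6% and 19.2% in dura CT, and in 10.0% and 33.3% in dura INJ, from 1 to 7 cells with both genes per library.

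*Pgf* (chromosome 12, 85166635 to 85177790, minus strand) encodes placental growth factor, the VEGFR1 ligand linked to inflammation and wound healing. It was the scarcest member, with 10 UMIs in brain CT, 37 in brain INJ, 23 in dura CT and 44 in dura INJ among all kept cells. The highest immune level was 7.5 CPM in the cDC2-like cells of dura INJ, where 12 of 13 UMIs came from 1 cell. No difference in *Pgf* between groups could be read at this depth.

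The study asked what part macrophages play in the regrowth of vessels after PTI. Infiltrating macrophage-like cells were found almost entirely in brain INJ, so the macrophages of brain CT are their reference. Infiltrating cells had 172 CPM *Nrp1* against 197 CPM, a log2 ratio of -0.19 (-0.29 to -0.09). They had 66.3 CPM *Nrp2* against 19.3 CPM, a log2 ratio of 1.78 (1.47 to 2.10) or 3.43-fold. *Vegfb* was higher by 0.41 (0.20 to 0.61), *Flt1* by 0.43 (-0.24 to 1.16) and *Kdr* by 0.56 (-0.31 to 1.56), the intervals of the last 2 spanning 0.

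*Nrp2* was the 1 of 5 tested members past 2-fold, beside 29.2% of all genes in either direction (7.78% higher and 21.4% lower). The median log2 ratio was 0.43 over the members and -0.24 over all genes, so the typical gene was lower in the infiltrating cells. Against the macrophages of the same brain INJ library the log2 ratios were 1.27 for *Nrp2* and 1.14 for *Flt1*, the 2 of 5 past 2-fold beside 16.8% of all genes, and 0.73 for *Vegfb* and 0.14 for *Nrp1*. Against microglia-like cells of that library *Flt1* was the 1 of 5 past 2-fold at 1.97 (0.78 with the endothelial- and stromal-marked barcodes kept), beside 28.5% of all genes, with *Nrp1* at 0.86, *Nrp2* at 0.68 and *Vegfb* at -0.19. Of the Lyve1- cells of brain INJ, 31.8% lay in clusters of infiltrating cells, which touches the comparison with macrophages of that library.

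Within classes present in both conditions the neuropilins and *Vegfb* stayed under 2-fold between INJ and CT in macrophage-like, microglia-like and Ly6C hi monocyte-like cells. Over all classes tested, *Vegfb* was past 2-fold lower in INJ in 3 of 14 dura classes and 1 of 10 brain classes. It was past 2-fold higher in 0 and 1 of them. Brain Lyve1+ cells had more *Nrp2* in INJ than in CT by a log2 ratio of 0.80 (0.24 to 1.37) and brain Lyve1- cells by 0.69 (0.21 to 1.20), but neither passed 2-fold, and none of the 3 and 5 tested members did, beside 6.12% and 11.0% of all genes. In the Lyve1- cells 31.8% of those of brain INJ but 0.4% of those of brain CT lay in clusters of infiltrating cells, where *Nrp2* was higher, and the part of this was not tested. Microglia-like cells had the neuropilins on opposite sides of 0, with *Nrp1* lower by a log2 ratio of -0.34 (-0.50 to -0.18) and *Nrp2* higher by 0.42 (0.13 to 0.71, but -0.12 after thinning), and 0 of 5 tested members past 2-fold beside 10.8% of all genes. The median in microglia-like cells was 0.00 over the members and -0.15 over all genes.

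In the macrophages of the dura the log2 ratios of INJ to CT were -0.12 (-0.20 to -0.03) for *Nrp1*, -0.07 (-0.21 to 0.08) for *Nrp2* and -0.24 (-0.45 to -0.02) for *Vegfb*. *Flt1* was 2.2 CPM in CT and 0.8 CPM in INJ, a log2 ratio of -1.53 (-2.90 to -0.24) that rested on 15 and 9 UMIs. It was the 1 of 5 tested members past 2-fold, beside 3.61% of all genes, and the medians were -0.24 over the members and -0.05 over all genes. With a minimum of 50 UMIs no member was past 2-fold. In Ly6C hi monocyte-like cells *Nrp1* was lower in INJ by -0.38 (-0.63 to -0.12) in the brain and by a log2 ratio of -0.23 in the dura, and *Nrp2* was higher by 0.92 (0.13 to 1.76) in the brain and by 0.14 in the dura.

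**Figure D4:**
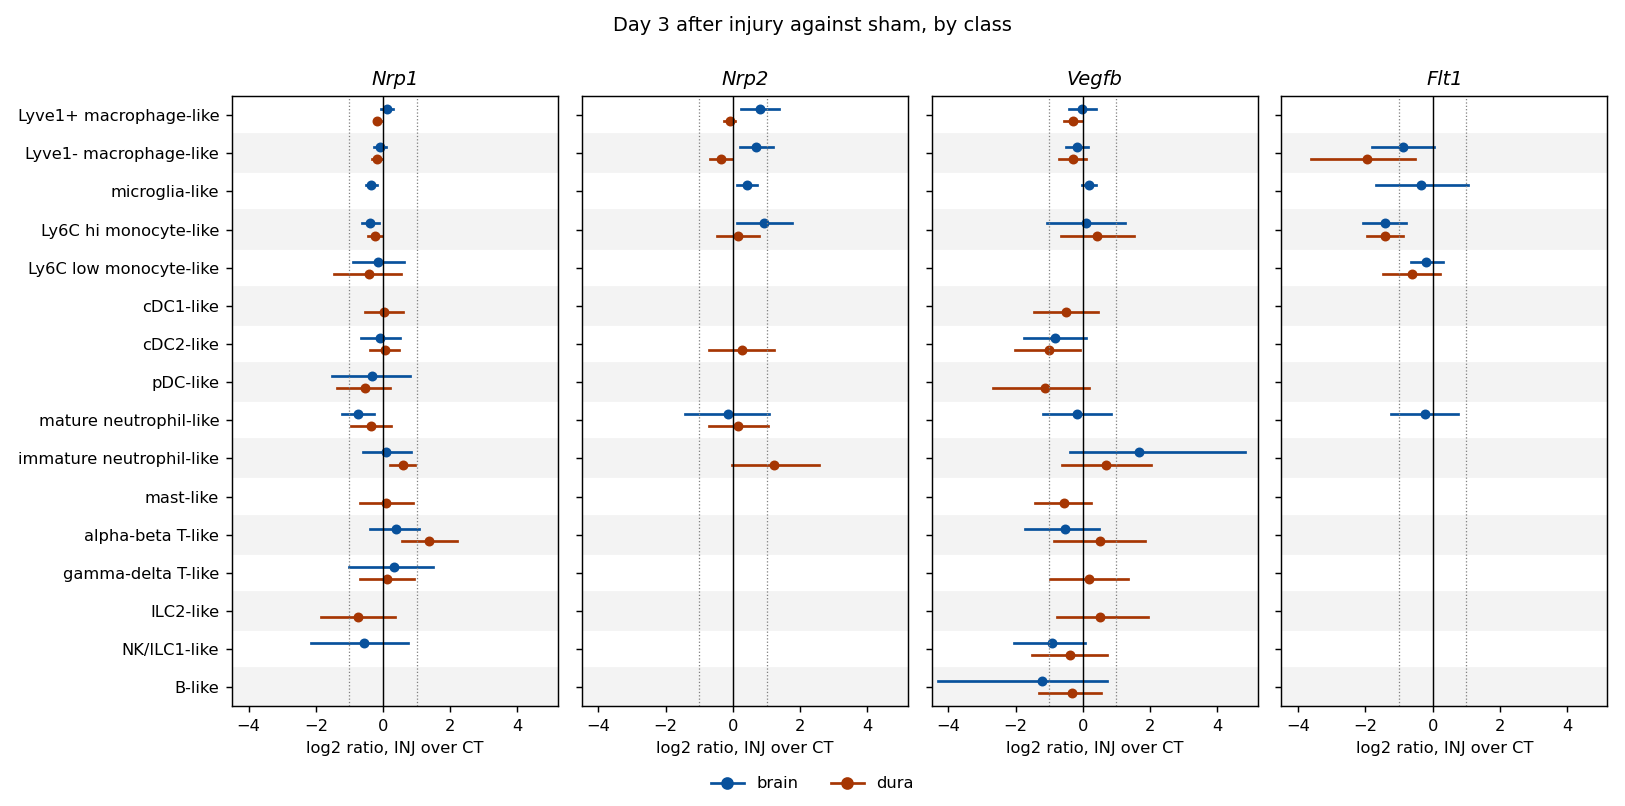
Log2 ratio of INJ to CT (horizontal axis) for *Nrp1*, *Nrp2*, *Vegfb* and *Flt1* by class and tissue, where both libraries together held at least 20 UMIs, with points for the ratio, bars for the exact 95% interval and dotted lines at 2-fold. The *Flt1* points of Ly6C hi monocyte-like cells lie at -1.41 in both tissues, left of the dotted line, while the *Nrp1* points of macrophage-like and microglia-like cells lie close to 0.

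A list of 34 other genes of the pathway gives the setting of the 7 members. It holds *Vegfa* and *Vegfd*, *Flt4* (VEGFR3), the plexins and semaphorins that share neuropilins, the angiopoietin and Tie genes, hypoxia factors, and the heparan sulphate carriers and proteases that handle VEGFs. All 34 were listed in at least 2 of the libraries. Between infiltrating macrophage-like cells and the macrophages of brain CT 16 of them were tested, of which 7 were past 2-fold higher and 4 lower. Of all genes tested there, 7.78% were past 2-fold higher and 21.4% lower.

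*Vegfa*, the founding VEGF and a ligand of both receptors and of neuropilin-1, was 243 CPM in the infiltrating cells against 9.88 CPM, a log2 ratio of 4.62. *Hif1a*, the hypoxia factor that drives *Vegfa*, was 186 against 56.1 CPM. *Gpc1*, a heparan sulphate carrier, was 17.7 against 2.36 CPM, and *Plxna1*, a plexin partner of the neuropilins, 23.4 against 7.09 CPM. *Plxna2*, *Angpt2* and *Epas1* were also past 2-fold higher, at 4.43 CPM or less. Among the lower genes *Plxna4*, another plexin partner, was 0.64 against 15.5 CPM, *Sema4a* 17.0 against 79.9 CPM and *Sema6d* 0.36 against 17.6 CPM. The remaining lower gene, *Lyve1*, is itself a marker used to place the macrophages.

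Between INJ and CT within a class, dura macrophages of INJ against CT had 0 of 15 tested list genes past 2-fold, beside 3.61% of all genes. Microglia-like cells had 1 of 10, beside 10.8% of all genes, namely *Vegfa* at 20.4 CPM in INJ against 3.52 CPM in CT. The 70 B-like cells of brain INJ had 24.2 CPM, but B-like cells were set as the measure of free RNA for the receptors only. The part of free RNA in the microglia-like *Vegfa* level was not tested. In the brain the Ly6C hi monocyte-like class had 2 of 8, beside 7.67% of all genes. These were *Vegfa* at 116 against 46.1 CPM and *Hif1a* at 223 against 100.4 CPM. The same class of the dura had 0 of 9, beside 4.83% of all genes, with *Vegfa* at 25.1 CPM in INJ and 48.8 CPM in CT.

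Between dura CT and brain CT macrophages 2 of 13 tested list genes were past 2-fold, beside 8.35% of all genes. *Plxna1* was higher in the dura at 19.9 against 7.09 CPM and *Vegfa* lower at 4.75 against 9.88 CPM. The Lyve1- cells of brain INJ had 141 CPM *Vegfa* against 10.1 CPM in brain CT, while Lyve1+ cells had 7.03 and 9.31 CPM. As above, the Lyve1- class held cells of infiltrating clusters in brain INJ, and infiltrating cells had 243 CPM.

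The genes whose class levels were most like each member's were ranked by Pearson's correlation of log2(CPM + 1) over 50 combinations of class and library, among 8037 genes. The points share libraries and depth, and the coefficients describe these groups only. For *Nrp1* they were *P2rx7* (r = 0.89), *Lrp5* (0.88) and *Itm2b* (0.88), for *Nrp2* *Adap2*, *Ctsb* and *Cttnbp2nl* (each 0.90), and for *Vegfb* *Tmem106c* (0.85), *Prmt2* (0.84) and *Mfhas1* (0.83). For *Flt1* they included *Ldlrad3* (0.85) and *Ace* (0.80), the latter being a marker that places Ly6C low monocytes. *Vegfc* had weaker neighbours, with *Nrarp* (0.76), *Rbpms* (0.62) and *Ggct* (0.61), and those of *Kdr* included *Stard3* (0.75) and *Spint1* (0.74).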

How the data were processed

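CD45+ cells of 4 mouse groups were sequenced by the authors, 1 library each. Per the labels' processing notes, reads were processed with Cell Ranger 3.1.0 and Seurat 3.1.0 on mm10 (GRCm38). As deposited by the authors, values are on a natural log scale, taken after a cell's UMIs were rescaled to a sum of 10000 and 1 was added. The plan had assumed raw counts. Since each value came out as a whole multiple of the smallest value of its cell within 1e-06, UMIs were recovered by taking that smallest value as 1 UMI. The lowest cell total was 500 UMIs and every listed gene was seen in at least 3 cells, so genes and barcodes below these limits are not in the files. From 3 to 11 barcodes were shared by any pair of libraries.

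Cells with more than 1000 and fewer than 6000 genes and no more than 7% of UMIs from mitochondrial genes were retained. The barcodes with the highest Scrublet scores (0.8% per 1000 barcodes, scanpy 1.11.5) were removed as doublets. Each cell received the class whose markers, scaled to their 90% quantile, scored at least 0.3 and led by at least 0.1. Barcodes with at least 5 of 12 endothelial or 4 of 9 stromal markers were set aside. These scoring and set-aside rules were chosen after the data were seen. The members, marker lists and pathway list were chosen with earlier results of these data known.

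UMIs were summed per class and library, and classes of under 20 cells in a library were left out. Intervals are exact (Poisson for CPM, Clopper-Pearson for shares, and an exact ratio interval for a pair of Poisson counts) at the 95% level, and a count of 0 was bounded by 3 counts. A gene was called past 2-fold where both groups together held at least 20 UMIs. PCR duplicates are collapsed by the UMIs. Brain CT, dura CT, brain INJ and dura INJ held 37590286, 41709177, 72390201 and 40479076 UMIs in kept cells. Named genes were the 7 members, the pathway genes past 2-fold and the 3 genes most like each member in pattern, of which 2 are not reported here. *Figf* of the pathway list was matched as *Vegfd* through RefSeq synonyms. Positions are those of the gene annotation on GRCm38. The ratio and interval code was tested on simulated data. Alternatives were clusters in place of gates, a stricter gate, no filter on cells, doublets kept, equal numbers of cells, thinning to 2000 UMIs, a mean over cells, a minimum of 50 UMIs and the marked barcodes kept. Python 3.11.15, numpy 2.4.6, scipy 1.17.1, pandas 2.3.3, scikit-learn 1.9.0, igraph 0.11.9 and matplotlib 3.10.9 were used.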

Additional observations from a re-analysis of the deposited data

Results flagged for a closer look

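The barcodes set aside for their endothelial or stromal markers gave, for the genes and libraries named here, levels above every immune class of the library. They belong to none of the immune classes compared. The 12 endothelial and 9 stromal markers that chose them include none of the 7 genes. Endothelial-marked barcodes had 2451, 970 (970.4), 2887 and 1415 CPM *Flt1* in brain CT, dura CT, brain INJ and dura INJ, and 334.5, 368 (367.6), 235 (235.3) and 298 (297.6) CPM *Kdr*. *Vegfc* was 98.6 CPM there in brain CT and 103 (102.9) CPM in brain INJ, and *Nrp2* was 70.4 CPM in brain CT, 309 (308.8) CPM in dura CT and 463 (462.9) CPM in dura INJ.

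*Pgf* was 65.9 CPM in the stromal-marked barcodes of brain INJ and 33.9 CPM in those of dura INJ, from 6 and 8 UMIs, and *Flt1* was 174 (173.6) CPM in those of brain CT. *Ptprc* was seen in 7 of 23, 3 of 9, 2 of 25 and 5 of 12 endothelial-marked barcodes of brain CT, dura CT, brain INJ and dura INJ, and in 3 of 9, 6 of 9, 2 of 5 and 8 of 13 stromal-marked ones.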

How the results depend on the processing

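No paired analysis was possible because each group was 1 library, and no replicate could be left out. Of 32 ratios past 2-fold, 20 kept a size of at least 2-fold and 30 kept their sign under each of up to 8 alternatives that gave a value, whatever the number of UMIs left, and 615 of 677 alternative ratios lay inside the interval of the main value. The alternatives differed in this. After thinning 48 of 76 lay inside, and with clusters in place of gates 67 of 85. Each other setting gave 81 to 86 of 86. Between dura CT and brain CT macrophages 1 member (*Nrp2*) in place of 2 was past 2-fold with clusters in place of gates, a stricter gate, 2500 cells per library, thinning to 2000 UMIs or a minimum of 50 UMIs. Between dura INJ and dura CT macrophages 0 in place of 1 were past 2-fold after thinning or with a minimum of 50 UMIs, and between Ly6C hi monocyte-like cells of brain INJ and brain CT 0 in place of 1 after thinning, which leaves too few *Flt1* UMIs. In microglia-like cells 1 in place of 0 was past 2-fold by the mean over cells (*Flt1*, -1.03). *Nrp1* between Ly6C low and Ly6C hi cells of brain INJ went from -1.06 to 0.19 with clusters (in brain CT from -1.29 to -0.06), and *Kdr* between infiltrating and Ly6C hi cells from 1.31 to -0.90 after thinning. The cause was not tested. *Nrp2* in microglia-like cells went from 0.42 to -0.12 after thinning, *Flt1* between infiltrating and microglia-like cells from 1.97 to 0.78 with the marked barcodes kept, an alternative chosen after seeing the data, and *Flt1* in Ly6C hi cells of the dura from -1.41 to -0.79 after thinning. With 1 library a group, depth limits *Kdr*, *Pgf* and *Vegfc* most.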
